A study of Mus musculus with 19 samples.

Results

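The 35 genes described here encode the proteins that hold cardiomyocytes (CMCs) together end to end at the intercalated disc and that anchor the contractile apparatus sideways to the surrounding matrix at the costamere. They were chosen by name from what their proteins are known to do and not by their values. Earlier results of these data were known when they were chosen, so the choice was not blind to the data. They are 35 of the 21000 protein-coding genes in the curated mouse annotation. All 35 entered the comparisons, which covered the 15016 genes that were at least 5 kb long and held a peak in at least 1 sample. For each gene and sample the measure was coverage, the percent of the base pairs between the first start and the last end of the gene's transcripts that lay under peaks of 5-hydroxymethylcytosine (5-hmC).

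At the intercalated disc, adherens junctions couple the actin cables of neighbouring CMCs through cadherins and catenins, and desmosomes couple their intermediate filaments through desmosomal cadherins, plakophilins and desmoplakin. At the costamere, integrins with talin and vinculin, and dystroglycan with the sarcoglycans, link the outermost sarcomeres through the membrane to laminin. 5-hmC is made from methylated cytosine by the TET enzymes and is found largely on gene bodies (GBs), where it tends to accompany transcription.

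CMCs were isolated from C57BL/6J mice at 4 points, with 2 biological replicates each: ventricles of E14.5 embryos, ventricles of pups of 1 to 2 days (neonatal), the left ventricle of 2-month-old adults, and the left ventricle of adults 1 week after transverse aortic constriction (TAC), a suture around the aortic arch that raises the pressure against which the heart pumps. The study used male mice, no sample carried a genetic change, and the comparison for TAC was here the adult without surgery, since no sham library was analysed. An antibody against 5-hmC was used to pull down DNA fragments for sequencing (hMeDIP-seq), and 1 peak list per sample was deposited, 8 in all. The preparations were enriched for CMCs but also held other cells, and in DNA from many cells fewer cells with the modification and less of it per cell cannot be told apart.

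The lists held 104215 to 153637 peaks and covered 65.1 to 119 Mb, and a peak's median width was 501 bp in each list. A list gives the place of a peak and not its height or the number of reads behind it, so the depth is unknown. TAC replicate 2 stood apart: it covered the least DNA, its mean coverage was 4.57% over all genes tested against 5.85% to 9.88% in the other 7 samples, and CpG dinucleotides under its peaks in the 35 genes were at 0.975 per 100 bp against 1.38 to 1.57 in the others. The mean level and the counts of separated genes at TAC are therefore given with and without it. The lists fixed as markers of cell types held 11 cardiomyocyte, 7 endothelial, 4 smooth muscle, 9 fibroblast and 4 blood genes. Those that did not pass the filter on length and peaks were left out, and leaving out genes without a peak raises a mean. The mean coverage of the genes tested was 6.78% to 33.6% for 9 cardiomyocyte and 3.94% to 10.2% for 7 endothelial genes. It was 3.55% to 12.3% for 4 smooth muscle, 1.10% to 3.57% for 7 fibroblast and 0% to 1.87% for 2 blood genes. Coverage of the cardiomyocyte genes was 19.1% to 33.6% in the E14.5 and neonatal samples, 10.3% and 15.7% for the adults and 11.4% and 6.78% after TAC, and that of the endothelial genes was lowest in the TAC samples, at 3.94% and 4.41%. The part of cell composition in the values below was not tested.

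On average, the disc and costamere genes were covered more densely than genes of their length in each of the 8 samples. Their mean coverage was 11.8% and 8.91% at E14.5, 14.3% and 16.9% in neonatal CMCs, 15.4% and 17.8% in adult CMCs, and 13.7% and 7.83% after TAC. The 50 genes nearest in length to each member averaged 5.87% and 5.47%, 6.99% and 8.21%, 6.50% and 8.54%, and 6.41% and 4.25% in the same samples. The difference was 4.69 ± 1.77 percentage points at E14.5, 7.99 ± 0.988 in neonatal CMCs, 9.09 ± 0.287 in adult CMCs, and 5.44 ± 2.62 after TAC (SD, n = 2), and 7.29 in TAC replicate 1 alone. Between 21 and 26 of the 35 genes lay above the mean of their own length-matched genes in each sample. With the median over members in place of the mean, the differences were 2.32, 5.31, 5.09 and 2.41 percentage points. Other genes of these structures, described below, had a similar mean coverage, so the dense coverage was not particular to the 35.

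**Figure D1:**
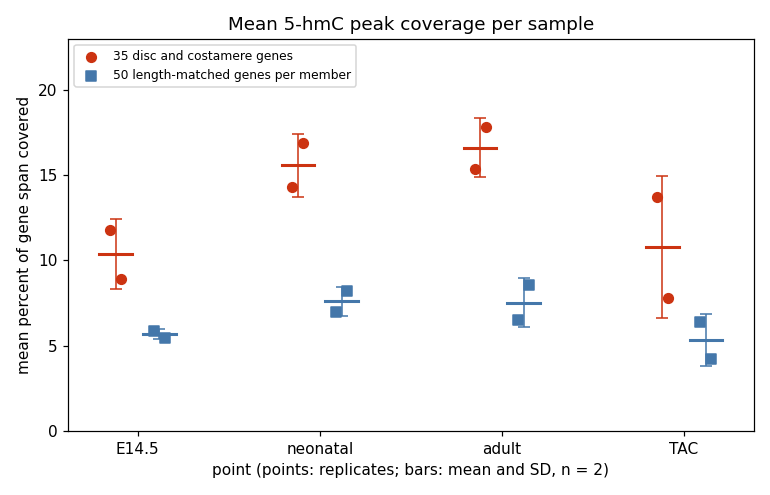
Mean percent of the gene span covered by 5-hmC peaks (y axis) at the 4 points (x axis) for the 35 disc and costamere genes (circles) and for 50 length-matched genes per member (squares). Symbols are replicates, wide bars the mean and thin bars the SD of 2 replicates. The circles lie between 7.83% and 17.8% and the squares between 4.25% and 8.54%, with the circle above the square in each sample.

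Among the members, levels were spread widely. *Lamb2*, *Pxn* and *Jup* had a mean over the 8 samples of 51.6%, 44.1% and 32.9%, at the 99.95th, 99.75th and 98.8th percentile of all genes tested. *Lamc1*, *Dsp*, *Lmna*, *Tln1*, *Pkp4* and *Cav3* followed, at 17.5% to 24.9%. At the other end stood *Lama2* at 1.11%, *Dsc2* at 1.64%, *Sgcd* at 2.37%, *Ptk2* at 2.85% and *Dtna* at 2.99%, none of them above the 35.3th percentile. *Dsc2*, the desmosomal cadherin desmocollin, held no peak in either E14.5 sample or in neonatal replicate 2.

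**Figure D2:**
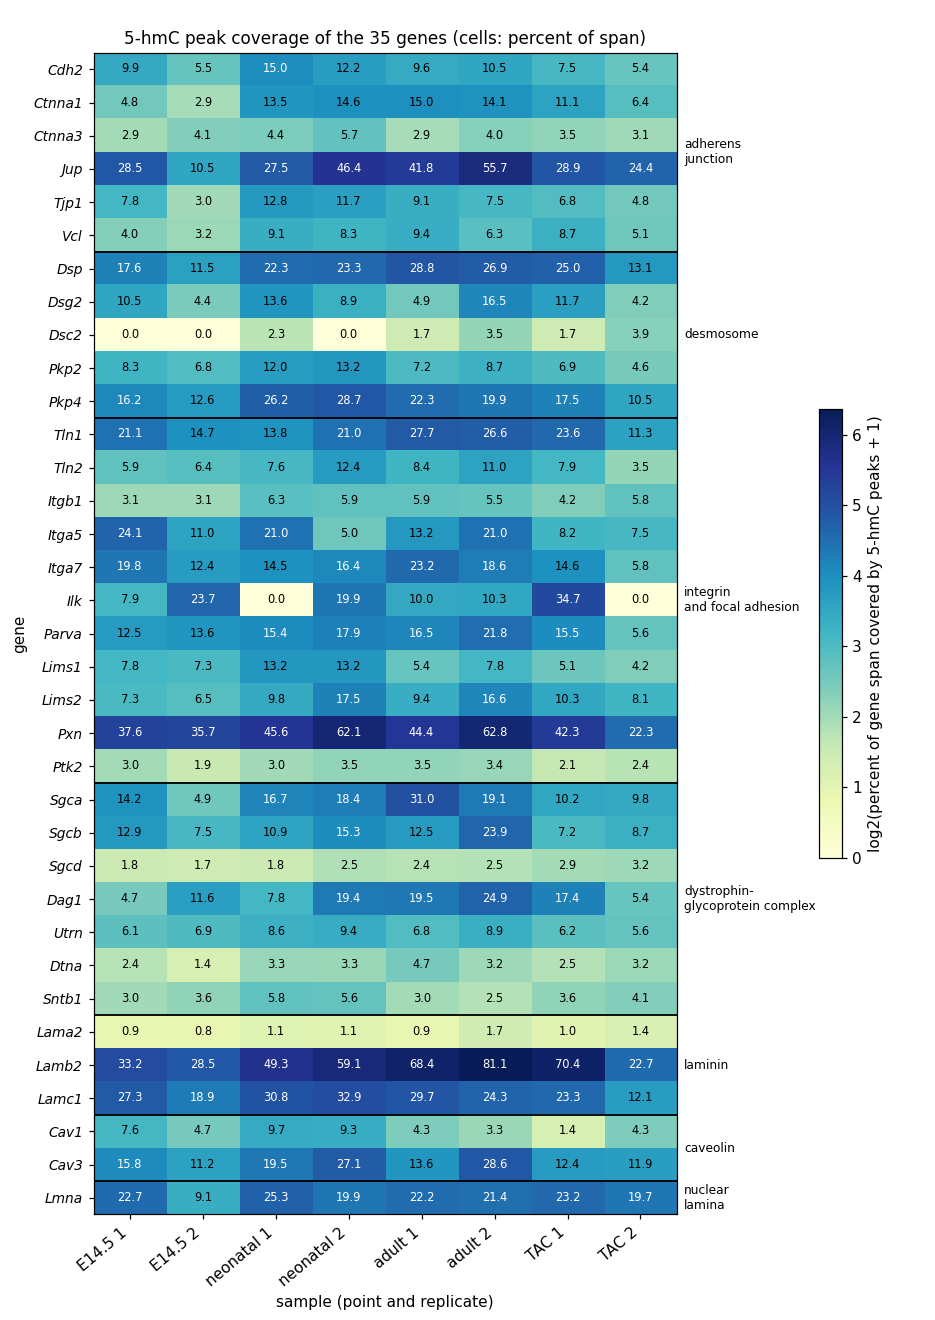
Coverage of each of the 35 genes (rows, grouped by role) in each of the 8 samples (columns), with the percent of the gene span in the cell and the colour on a log2(percent + 1) scale. *Lamb2*, *Pxn* and *Jup* are the darkest rows, *Lama2*, *Dsc2* and *Sgcd* are pale throughout, and the last column, TAC replicate 2, is paler than TAC replicate 1 in 26 of the 35 rows.

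Few regions carried a peak in every sample. Sequences are given here from the mm10 genome, 5′ to 3′ on the strand of the gene, with each CpG dinucleotide, the main place of cytosine modification, in capitals. Base pairs common to all 8 lists formed 4 regions in 2 members, 1 in *Cdh2* and 3 in *Pxn*, and 5.71% of members against 6.48% of all genes held one. Without TAC replicate 2, 27 regions lay in all 7 lists, in 14 members, which is 40% of members against 15.1% of all genes, and 9 of the 27 were in *Pxn*. These shares were not matched for gene length, and a longer gene has more room for such a region. The region of *Pxn* in all 8 lists that is shown is at chr5:115524663-115524884, 18.1 kb from the start in an intron, with 8 CpG in 222 bp. The region of *Jup* shown is at chr11:100376681-100376980, 21 kb from the start, with 258 of its 300 bases coding and 15 CpG, and it lay under a peak in all samples but TAC replicate 2.
Pxn: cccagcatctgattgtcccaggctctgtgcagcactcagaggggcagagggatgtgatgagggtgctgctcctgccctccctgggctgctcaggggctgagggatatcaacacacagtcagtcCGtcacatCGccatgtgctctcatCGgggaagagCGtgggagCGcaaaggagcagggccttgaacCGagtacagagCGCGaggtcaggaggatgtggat
Jup: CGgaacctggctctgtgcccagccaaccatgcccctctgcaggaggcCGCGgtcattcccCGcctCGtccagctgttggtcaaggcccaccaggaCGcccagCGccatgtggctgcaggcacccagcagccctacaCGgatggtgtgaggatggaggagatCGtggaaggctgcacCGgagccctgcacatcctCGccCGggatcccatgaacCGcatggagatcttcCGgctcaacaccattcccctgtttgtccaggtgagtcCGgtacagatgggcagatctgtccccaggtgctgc

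Regions covered at some points and not at others are shown next, as examples of where the points differ. The region of *Dsp* at chr13:38197551-38197850 is coding sequence 46.4 kb from the gene start, with 16 CpG. It lay wholly under a peak in both adult samples and TAC replicate 1, over 19% in TAC replicate 2, and under none at E14.5 or in neonatal CMCs. The region of *Dag1* at chr9:108208548-108208847 is coding sequence 55.3 kb from the start, with 16 CpG, and was covered in full in both adult samples, TAC replicate 1 and E14.5 replicate 1 and not at all in the other 4. The region of *Lims1* at chr10:58418918-58419217 is intronic, holds 4 CpG and was covered in both neonatal samples only. The region of *Lamb2* at chr9:108479612-108479846 lies just before the gene start, holds 3 CpG and was covered in full in E14.5 replicate 2 and both neonatal samples, over 88.5% in TAC replicate 1 and not at all in the other 4. The 3 windows inside genes are the 300 bases with the most CpG in the longest such region, leaving out untranslated exon bases.
Dsp: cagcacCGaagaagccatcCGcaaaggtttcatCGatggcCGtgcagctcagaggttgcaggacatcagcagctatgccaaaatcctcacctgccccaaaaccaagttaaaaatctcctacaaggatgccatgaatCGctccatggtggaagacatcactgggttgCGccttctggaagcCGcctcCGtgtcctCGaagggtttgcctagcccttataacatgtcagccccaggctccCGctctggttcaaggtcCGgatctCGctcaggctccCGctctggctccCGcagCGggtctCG
Dag1: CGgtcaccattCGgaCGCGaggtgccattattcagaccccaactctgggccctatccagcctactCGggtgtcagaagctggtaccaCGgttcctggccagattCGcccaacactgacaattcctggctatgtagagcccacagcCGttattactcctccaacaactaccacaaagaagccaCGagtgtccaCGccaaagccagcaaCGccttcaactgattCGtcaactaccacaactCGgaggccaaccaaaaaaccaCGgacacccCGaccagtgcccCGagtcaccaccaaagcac
Lims1: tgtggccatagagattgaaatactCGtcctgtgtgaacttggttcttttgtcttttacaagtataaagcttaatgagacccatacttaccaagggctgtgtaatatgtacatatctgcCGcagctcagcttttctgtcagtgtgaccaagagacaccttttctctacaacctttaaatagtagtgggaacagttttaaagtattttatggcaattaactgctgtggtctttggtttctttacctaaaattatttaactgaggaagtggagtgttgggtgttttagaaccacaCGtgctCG
Lamb2: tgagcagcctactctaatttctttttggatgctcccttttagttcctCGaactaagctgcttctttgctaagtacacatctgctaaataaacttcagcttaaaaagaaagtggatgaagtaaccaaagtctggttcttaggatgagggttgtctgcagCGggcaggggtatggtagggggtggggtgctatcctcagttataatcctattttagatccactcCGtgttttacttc

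No member passed the test for a change over the 4 points. With limma on log2(percent + 1) and Benjamini-Hochberg adjustment over all genes, 0 of 35 members and 0.966% of all genes tested were called at an adjusted p under 0.05. The single steps called 0 members in either direction, beside 0% of all genes higher and 0% lower from E14.5 to neonatal, 0.326% higher and 0.253% lower from neonatal to adult, 0.04% higher and 0.113% lower from adult to TAC, and 0.613% higher and 0.253% lower from E14.5 to adult. At an unadjusted p under 0.05, limma gave 2 members over the 4 points, *Ctnna1* and *Lims1*, and 4, 1, 0 and 4 members in these steps, against 11.9%, 6.85%, 9.19%, 6.76% and 16.6% of all genes. An exact permutation test over the 105 divisions of the samples into pairs gave 5 members at p under 0.05, or 14.3% against 7.75% of all genes: *Ctnna1* and *Sntb1* (p = 0.019 each), *Lims1* (p = 0.0381), and *Itgb1* and *Sgcd* (p = 0.0476 each). None of these held after adjustment, where the lowest adjusted p was 0.569, and the smallest p this test can give is 0.00952.

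The steps are therefore described by whether replicates overlap. A gene was counted as separated where both replicates of a point lay above both of the other and the means were at least 2 percentage points apart. The steps share samples, so they are not independent of each other. On average the members were covered more densely than all genes, so the same relative change passes a gap in points more easily in them. The part of this in the counts below was not tested. From E14.5 to neonatal, 20 members were higher and 0 lower, beside 22% and 4.26% of all genes. The 20 were 4 of the 6 adherens junction genes (*Cdh2*, *Ctnna1*, *Tjp1*, *Vcl*), 3 of the 5 desmosome genes (*Dsp*, *Pkp2*, *Pkp4*), 6 of the 11 integrin and focal adhesion genes, 3 of the 7 genes of the dystrophin-glycoprotein complex, the laminin chains *Lamb2* and *Lamc1*, and both caveolins. The median log2 difference was 0.60 over the members and 0.19 over all genes, and 31 of 35 members against 60.2% of all genes had a positive difference. Of all genes, 5011 had a negative difference, and the rest, such as genes without a peak at both points, had none. With each sample scaled to the same mean coverage over all genes, 10 members were higher and 2 lower, beside 12.4% and 13.7% of all genes. Without E14.5 replicate 1, E14.5 replicate 2, neonatal replicate 1 and neonatal replicate 2 in turn, 1, 3, 1 and 2 members were lower, beside 11.1%, 12.1%, 6.62% and 13.4% of all genes.

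From neonatal to adult, members were separated in both directions. *Dsp*, *Tln1*, *Itga7*, *Sgca*, *Dag1* and *Lamb2* were separated upwards, which is 6 members beside 14.2% of all genes. *Cdh2*, *Tjp1*, *Pkp2*, *Pkp4*, *Lims1*, *Sntb1*, *Lamc1* and *Cav1* were separated downwards, which is 8 members beside 14.6% of all genes. The median log2 difference was -0.01 over members and -0.05 over all genes, and -0.04 to 0.13 over members with each replicate left out in turn. With lists thinned to equal peak numbers, 11 were higher and 1 lower, beside 22.3% and 7.37% of all genes, and scaled to the same mean coverage, 4 were higher and 7 lower, beside 13.7% and 16.8%. Single libraries also moved these counts. Without adult replicate 1 there were 13 higher (30.5% of all genes), without neonatal replicate 2 there were 11 higher (24.3%), and without adult replicate 2 there were 14 lower (27.5%).

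From E14.5 to adult, 16 members were higher, beside 26.4% of all genes, and *Cav1* alone was lower, beside 12% of all genes. The median log2 difference was 0.53 over the members against 0.11 over all genes, and 0.32 against 0.07 without E14.5 replicate 2. Scaled to the same mean coverage, 7 were higher and 3 lower, beside 17.2% and 23%. Without E14.5 replicate 1, 25 were higher, beside 33.3% of all genes, and without E14.5 replicate 2, 2 were lower, beside 17.7%. E14.5 replicate 2 lay below E14.5 replicate 1 in 26 of the 35 members, against 43.2% of all genes. Genes equal in both samples, such as those without a peak, count here as not below.

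From adult to TAC, 18 members were lower, beside 20.9% of all genes, and 0 were higher, beside 3%. They were *Cdh2*, *Ctnna1*, *Jup* and *Tjp1* of the adherens junction, *Dsp*, *Pkp2* and *Pkp4* of the desmosome, *Tln1*, *Tln2*, *Itga5*, *Itga7*, *Parva* and *Pxn* of the integrin adhesions, *Sgca*, *Sgcb* and *Dag1* of the dystrophin-glycoprotein complex, and *Lamc1* and *Cav3*. Without TAC replicate 2, 16 were lower and 1 higher, beside 23.5% and 12.2% of all genes. Scaled to the same mean coverage, 5 were lower and 2 higher, beside 9.68% and 10.8%, and the mean coverage over all genes was 8.62% in adult and 5.91% in TAC CMCs. The median log2 difference was -0.59 over the members and -0.29 over all genes, and without TAC replicate 2 it was -0.27 and -0.08. By point mean, 18 members were highest in neonatal, 13 in adult, 3 in TAC and 1 in E14.5 CMCs, against 31.4%, 33.9%, 11.1% and 23.6% of all genes. Without TAC replicate 2 these counts were 15, 14, 5 and 1, against 29.3%, 28.8%, 17.8% and 24.1% of all genes.

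**Figure D3:**
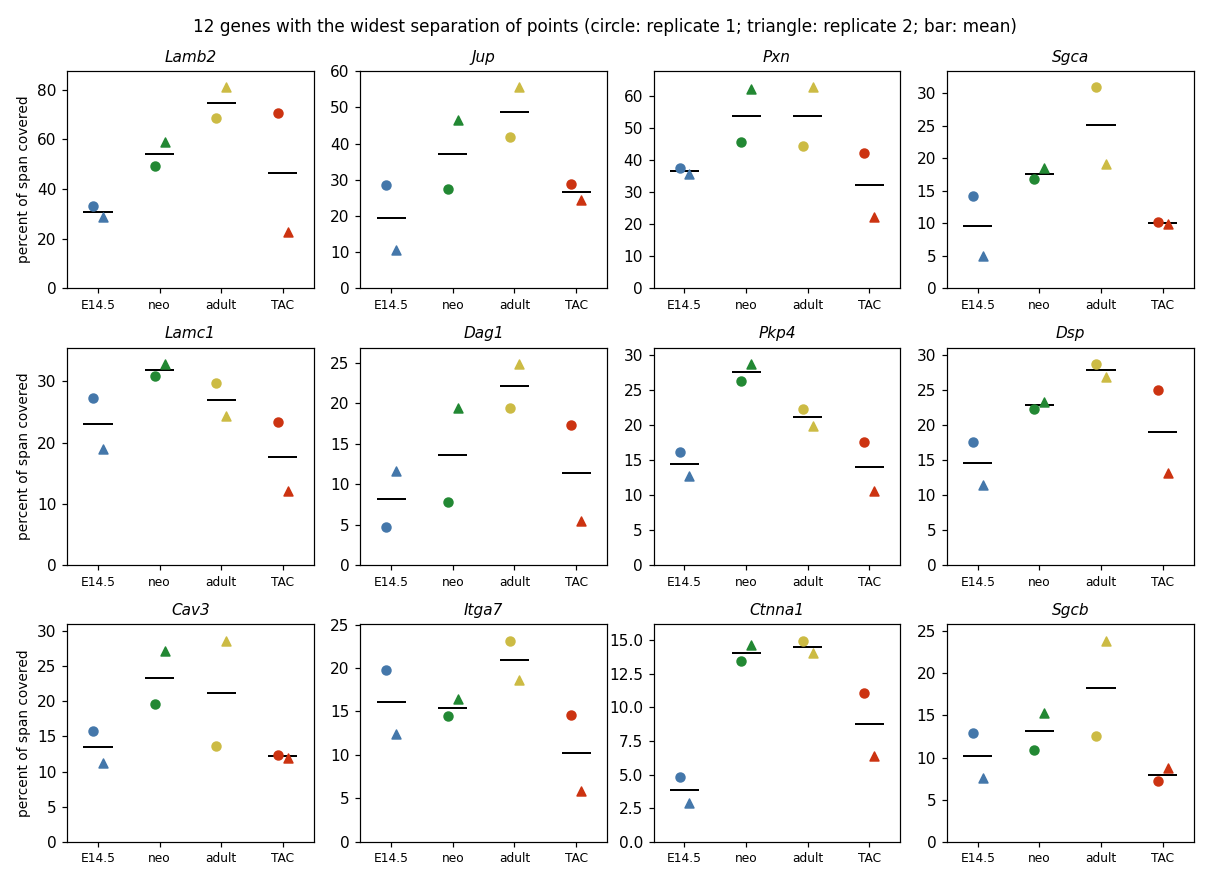
Percent of the gene span covered (y axis, from 0, with its own scale in each panel) at the 4 points (x axis) for the 12 genes with the largest gap between points whose replicates do not overlap. Circles are replicate 1, triangles replicate 2 and bars their mean. *Ctnna1* has both E14.5 samples below 5% and the neonatal and adult samples between 13.5% and 15.0%, and the TAC replicates of *Lamb2* stand at 70.4% and 22.7%.

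The 12 members with the largest gap between non-overlapping points are given in every sample. Among the adherens junction genes, *Jup* encodes plakoglobin, a catenin shared by adherens junctions and desmosomes, and lies at chr11:100368856-100397790 (mm10, minus strand). Its coverage was 28.5% and 10.5% at E14.5, 27.5% and 46.4% in neonatal CMCs, 41.8% and 55.7% in adult CMCs, and 28.9% and 24.4% after TAC. The adult samples lay above the TAC samples and above the E14.5 samples, while E14.5 and neonatal overlapped (log2 difference from E14.5 to adult 1.42 ± 0.53, the SE, limma adjusted p = 0.272, and 0.74 without E14.5 replicate 2). *Ctnna1* encodes alpha-E-catenin, which ties the cadherin complex to actin, and its span was covered at 4.82% and 2.89%, 13.5% and 14.6%, 15.0% and 14.1%, and 11.1% and 6.37% at the same points in order. Both E14.5 samples were the lowest of the 8, and the neonatal and adult samples lay close together above the TAC samples. The log2 difference from E14.5 to neonatal was 1.66 ± 0.39 (limma unadjusted p = 0.00582, adjusted p = 0.426). *Ctnna1* also contains the gene *Lrrtm2*, over 4.43% of its span. The other adherens junction genes ranged from 2.89% to 15.0%, with the alpha-T-catenin gene *Ctnna3* the lowest on average, at 3.81%. *Ctnna3* contains *Lrrtm3*, over 10.3% of its span.

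In the desmosome, *Dsp* encodes desmoplakin, which binds the intermediate filaments, and lies at chr13:38151294-38198577 (plus strand). It was covered at 17.6% and 11.5% at E14.5, 22.3% and 23.3% in neonatal CMCs, 28.8% and 26.9% in adult CMCs, and 25.0% and 13.1% after TAC. The 3 stages of growth did not overlap and stood in the order of age, and the adult samples were the highest of the 8 (log2 difference from E14.5 to adult 0.92 ± 0.40, limma adjusted p = 0.325). *Pkp4*, a plakophilin of the armadillo family, was covered at 16.2% and 12.6%, 26.2% and 28.7%, 22.3% and 19.9%, and 17.5% and 10.5%, with neonatal above all other samples. *Pkp2*, the main plakophilin of the heart, had the same order of points at lower levels, from 4.57% to 13.2%. *Dsg2*, a desmosomal cadherin of CMCs, spread over 4.16% to 16.5% and overlapped at each step.

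Of the integrin and focal adhesion genes, *Pxn* encodes paxillin, an adaptor of focal adhesions, and lies at chr5:115506676-115555987 (plus strand). It was covered at 37.6% and 35.7% at E14.5, 45.6% and 62.1% in neonatal CMCs, 44.4% and 62.8% in adult CMCs, and 42.3% and 22.3% after TAC. It was the only member to carry more than 30% in 7 of the 8 samples, and TAC replicate 1 lay below both adult samples by a small margin. *Itga7*, the integrin chain that binds laminin in striated muscle, was covered at 19.8% and 12.4%, 14.51% and 16.4%, 23.2% and 18.6%, and 14.6% and 5.80%. Its adult samples stood above the neonatal and TAC samples but overlapped E14.5 (log2 difference from adult to TAC -1.08 ± 0.49, limma adjusted p = 0.722). This difference was -0.48 without TAC replicate 2 and -1.68 without TAC replicate 1. *Itgb1*, the common beta chain, was covered thinly, at 3.14% in both E14.5 samples and 4.18% to 6.27% elsewhere. *Lims1*, which encodes the adaptor PINCH1, was covered at 13.2% in both neonatal samples and at 4.21% to 7.82% in the other 6. *Ilk*, the integrin-linked kinase, is the shortest member at 6.34 kb and overlaps *Rrp8* and *Taf10* over 13.1% of its span, and its coverage ran from 0% in neonatal replicate 1 and TAC replicate 2 to 34.7% in TAC replicate 1. Of the others, talin-1 (*Tln1*) ranged over 11.3% to 27.7%, *Itga5* over 5.01% to 24.1%, *Parva* over 5.63% to 21.8%, *Lims2* over 6.47% to 17.5%, talin-2 (*Tln2*) over 3.46% to 12.4% and the kinase gene *Ptk2* over 1.94% to 3.54%. *Lims2* overlaps *Gpr17* over 18.3% of its span.

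In the dystrophin-glycoprotein complex, *Dag1* encodes dystroglycan, the laminin receptor, and lies at chr9:108204861-108263958 (minus strand). It was covered at 4.69% and 11.6% at E14.5, 7.79% and 19.4% in neonatal CMCs, 19.5% and 24.9% in adult CMCs, and 17.4% and 5.41% after TAC. Both adult samples were above the other 6, the nearest being neonatal replicate 2 (log2 difference from E14.5 to adult 1.44 ± 0.72, limma adjusted p = 0.375, and 0.86 without E14.5 replicate 1). *Sgca*, alpha-sarcoglycan, was covered at 14.2% and 4.93%, 16.7% and 18.4%, 31.0% and 19.1%, and 10.2% and 9.81%, again with the adult samples on top. *Sgcb*, beta-sarcoglycan, was covered at 12.9% and 7.52%, 10.9% and 15.3%, 12.5% and 23.9%, and 7.20% and 8.73%, and its TAC samples lay below the adult and neonatal samples. The log2 difference from adult to TAC was -1.20 ± 0.52 for *Sgca* and -1.04 ± 0.46 for *Sgcb* (limma adjusted p = 0.722 each), -1.18 and -1.16 without TAC replicate 2, and -0.60 for *Sgcb* without adult replicate 2. *Sgca* held 1 to 3 peaks in each sample and *Sgcb* 1 to 5, so these percents and differences rest on few peaks. *Sgca* overlaps *Hils1* over 6.38% of its span. The long genes *Sgcd*, *Dtna*, *Sntb1* and *Utrn* stayed between 1.37% and 9.43% in all samples.

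The laminin chains form the matrix partner of both receptor systems. *Lamb2*, the beta-2 chain, lies at chr9:108479862-108490530 (plus strand) and had the highest coverage of all members. It was covered at 33.2% and 28.5% at E14.5, 49.3% and 59.1% in neonatal CMCs, 68.4% and 81.1% in adult CMCs, and 70.4% and 22.7% after TAC. The E14.5, neonatal and adult samples did not overlap and stood in the order of age, while TAC replicate 1 lay within the adult range and TAC replicate 2 was the lowest of the 8 (log2 difference from E14.5 to adult 1.25 ± 0.53, limma adjusted p = 0.318). Each E14.5 and adult sample had 2 peaks in *Lamb2*, so that in peak centres per 10 kb the difference between these points was 0. *Lamc1*, the gamma-1 chain, was covered at 27.3% and 18.9%, 30.8% and 32.9%, 29.7% and 24.3%, and 23.3% and 12.1%, highest in the neonatal samples. *Lama2*, the alpha chain of the muscle laminin, extends over 636 kb and was covered at 0.828% to 1.69%. Of the caveolins, *Cav3*, the muscle form, was covered at 15.8% and 11.2%, 19.5% and 27.1%, 13.6% and 28.6%, and 12.4% and 11.9%. Its neonatal samples lay above the E14.5 and TAC samples, and the adult samples spread across both. *Cav1*, the broadly expressed form, was covered at 4.67% to 9.72% at E14.5 and neonatal and 1.43% to 4.30% in adult and TAC. *Lmna*, the nuclear lamin A and C gene, was at 9.13% in E14.5 replicate 2 and 19.7% to 25.3% elsewhere.

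The place of the peaks within the genes also differed between points. In each member the coverage of the part of the span nearer the gene start was set beside that of the part nearer its end, cut at the middle. Over the members, the part nearer the start was covered at 19.1% and 22.04% and the part nearer the end at 9.51% and 11.7% in the neonatal samples. In the adult samples the values were 16.6% and 16.2% near the start and 14.2% and 19.4% near the end. The part nearer the end was the more covered in 3 and 8 of 35 members in neonatal, 11 and 9 at E14.5, 15 and 18 in adult CMCs, and 16 and 12 after TAC, against 31.7% to 38.0% of all genes. A gene without a peak in either part counts here as not more covered near the end. Intron coverage was present in 73.9% to 81.4% of all genes and 97.1% to 100% of members. Genes without a peak therefore lower the share of all genes more than that of members. From neonatal to adult, the balance of the parts lay nearer the end in the adult samples, without overlap, in 14 members (15.7% of all genes) and nearer the start in 0 (13.1%), and with samples scaled to the same mean coverage the counts were again 14 (15.9%) and 0 (13.1%). Without neonatal replicate 1, 18 lay nearer the end (28.1% of all genes) and 5 nearer the start (24.3%), and without adult replicate 2, 19 (25%) and 5 (25.4%). Without neonatal replicate 2 the counts were 19 (26.2%) and 1 (23.5%), and without adult replicate 1 they were 21 (29.3%) and 1 (23.7%). From E14.5 to neonatal, it lay nearer the start in neonatal samples in 17 (14.1% of all genes) and nearer the end in 2 (9.03%), and 7 (13.7%) and 3 (10.5%) with samples scaled. Without E14.5 replicate 2, 6 lay nearer the end (20.1%), and without neonatal replicate 1, 7 did (20.4%). The members were more densely covered than other genes, so the same relative change gives them a larger difference, and the part of this in the counts was not tested. These counts were chosen after values had been seen.

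**Figure D4:**
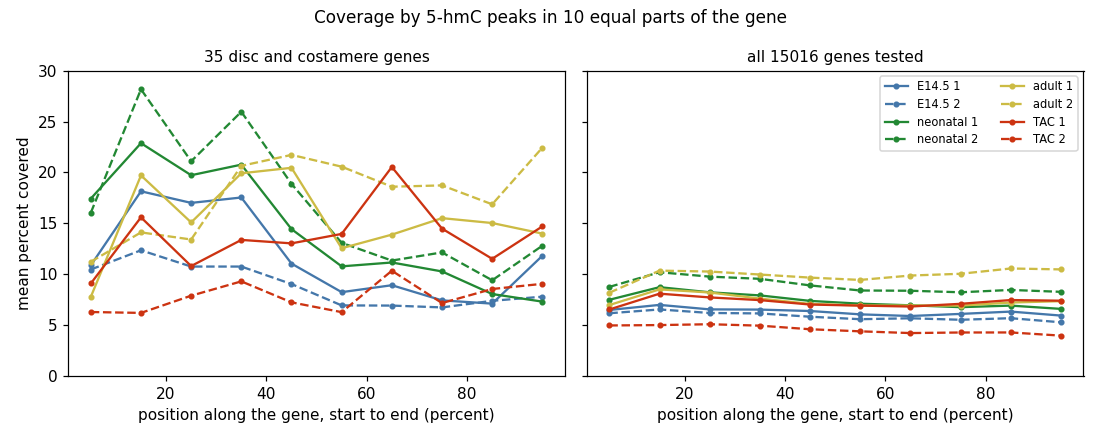
Mean percent covered (y axis) in 10 equal parts of the gene from start to end (x axis, percent of the gene length) for the 35 members (left) and all genes tested (right), with a line per sample, solid for replicate 1 and dashed for replicate 2. In the members the neonatal lines reach 22.9% and 28.2% in the second of the 10 parts and end at 7.30% and 12.8%, and the adult lines end at 14.0% and 22.4%.

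The 14 genes were *Cdh2*, *Ctnna1*, *Jup*, *Tjp1*, *Vcl*, *Dsp*, *Tln1*, *Tln2*, *Itga7*, *Parva*, *Lims2*, *Dag1*, *Lamb2* and *Cav3*, so that 5 of the 6 adherens junction genes were among them. In *Dsp* the part nearer the start was covered at 31.7% and 40.3% in neonatal and 18.9% and 6.92% in adult samples, and the part nearer the end at 13.0% and 6.36% and at 38.7% and 46.8%, so that neither part overlapped between the points. In *Lamb2* the part nearer the start was covered at 71.4% and 91.5% in neonatal and 56.2% and 62.3% in adult samples, and the part nearer the end at 27.2% and 26.6% and at 80.5% and 100%. Both TAC samples of *Lamb2* were covered more densely near the end, at 93.0% and 45.3%, than near the start, at 47.8% and 0%. In *Jup* the part nearer the end was covered at 16.0% and 32.8% in neonatal and 56.7% and 71.5% in adult samples.

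**Figure D5:**
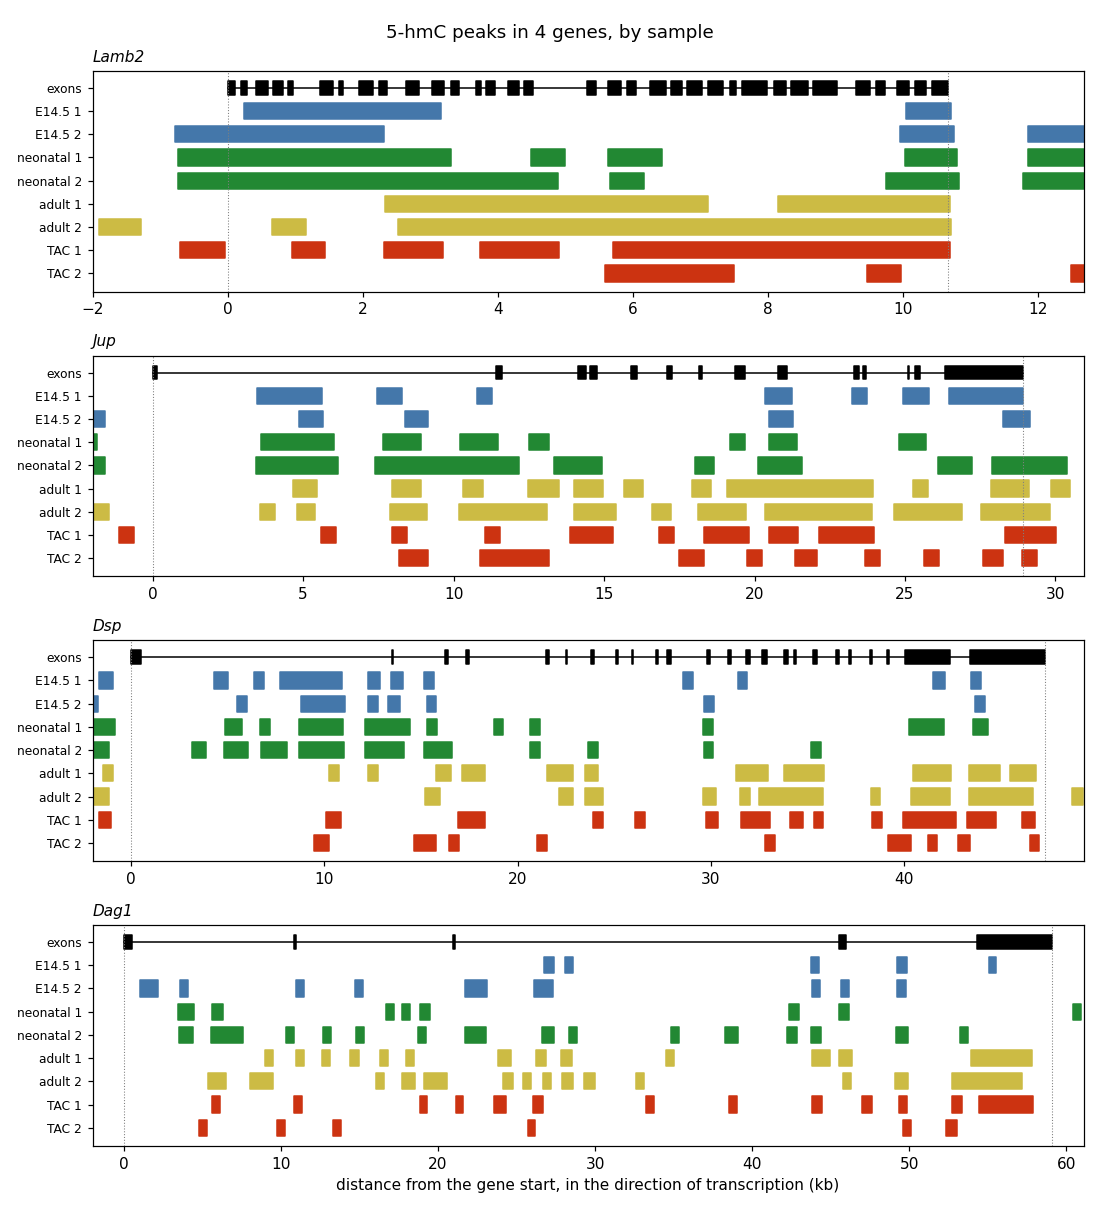
Peaks of the 8 samples (coloured bars, a line per sample) and exons (black) in *Lamb2*, *Jup*, *Dsp* and *Dag1*, by distance from the gene start in kb in the direction of transcription, and dotted lines mark the start and end of the gene. In *Lamb2* the neonatal peaks begin before the gene start and the adult peaks fill the distal part, and in *Dsp* and *Dag1* the broad exons at the end of the gene carry long peaks in both adult samples and in TAC replicate 1.

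Exon coverage of the members had its highest point mean in adult CMCs. Mean exon coverage over the members was 10.3% ± 3.09 at E14.5, 13.3% ± 3.17 in neonatal CMCs, 21.3% ± 4.42 in adult CMCs, and 12.3% ± 9.27 after TAC (SD, n = 2), against 6.45%, 8.38%, 10.4% and 6.46% over all genes, and the TAC replicates were at 18.8% and 5.71%. From neonatal to adult, exon coverage was separated upwards in 14 members (15.1% of all genes) and downwards in 3 (8.54%). From E14.5 to adult the counts were 15 (20.7%) and 5 (7.51%). Exons too were covered more densely in the members, and the part of this in the exon counts was not tested. From adult to TAC 14 were lower (17.2%) and *Pxn* alone was higher (3.07%), and without TAC replicate 2 there were 13 lower (20.1%) and 8 higher (16.1%). Scaled to the same mean coverage, the 3 steps gave 15 up and 3 down (15% and 9.61% of all genes), 11 up and 7 down (16.1% and 11.9%), and 1 up and 7 down (6.23% and 12.6%). Leaving out 1 library also moved these counts: from neonatal to adult 22 were higher without adult replicate 1 (33.5%), and 9, 6, 7 and 5 were lower without neonatal replicate 1, neonatal replicate 2, adult replicate 1 and adult replicate 2 (20.2%, 16.3%, 12.3% and 17.7%). From adult to TAC 2 were higher without adult replicate 2 (8.9%) and 26 were lower without TAC replicate 1 (32.3%). Exons of *Dsp* were covered at 13.5% and 7.91% at E14.5, 29.4% and 7.96% in neonatal CMCs, 66.0% and 69.5% in adult CMCs, and 56.7% and 14.52% after TAC. Exons of *Dag1* were covered at 8.41% and 5.40%, 6.68% and 0%, 66.2% and 50.6%, and 59.9% and 0%. In both genes the adult samples and TAC replicate 1 stood far above the rest, and the coding stretches printed above lie in these exons.

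The promoter of *Lamb2*, taken as 1 kb on each side of the gene start, was covered at 38.0% and 88.7% at E14.5, 86.8% and 86.7% in neonatal CMCs, 0% and 17.0% in adult CMCs, and 35.8% and 0% after TAC. The highest promoter value of any other member was 52.0%, for *Lims2* in TAC replicate 1. Over all members the promoter was covered at 10.7% and 10.6% in neonatal samples and 3.38% to 7.44% in the other 6, against 5.58% and 6.45% and 4.28% to 5.91% over all genes. A peak reached the promoter in 13 and 11 members in neonatal samples and in 4 to 11 in the other 6. These means therefore rest on few genes, *Lamb2* among them. *Parva*, the actopaxin gene, was covered at its promoter at 44.0% and 48.4% in neonatal and 0% to 39.9% in the other samples. No peak reached the promoter window in 10 members, among them *Pxn* and *Dag1*.

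The other genes of these structures were taken from a list of 58 genes, of which 56 were tested, which held the remaining integrin, laminin and sarcoglycan chains and further adaptors and cytoskeletal linkers. None passed limma's adjusted test over the 4 points or in a step. At an unadjusted p under 0.05, limma gave 3 of the 56 over the 4 points, beside 11.9% of all genes. It gave 4, 3, 5 and 6 in the steps from E14.5 to neonatal, neonatal to adult, adult to TAC and E14.5 to adult. Of all genes, 6.85%, 9.19%, 6.76% and 16.6% had such a p in these steps. By non-overlap, 25 were higher and 1 lower from E14.5 to neonatal, 8 and 13 from neonatal to adult, 2 and 15 from adult to TAC, and 23 and 6 from E14.5 to adult. Of all genes, 22% and 4.26%, 14.2% and 14.6%, 3% and 20.9%, and 26.4% and 12% were higher and lower in these steps. Beta-catenin, *Ctnnb1*, the close relative of plakoglobin that binds cadherins at the adherens junction, was covered at 14.0% and 5.54% at E14.5, 35.9% and 31.9% in neonatal CMCs, 14.7% and 24.1% in adult CMCs, and 16.1% and 12.1% after TAC. Its neonatal samples stood above the other 6 (log2 difference from E14.5 to neonatal 1.81 ± 0.49, limma adjusted p = 0.538). *Lama5*, a laminin chain of basement membranes, was covered at 9.39% to 17.6% at E14.5 and neonatal and at 30.7% and 57.5% in adult samples, with TAC replicate 1 at 31.0% within the adult range and TAC replicate 2 at 15.2%. *Zyx*, which encodes the focal adhesion protein zyxin, was covered at 49.8% and 59.0% in neonatal samples and at 8.87% to 53.1% in the others. *Sun2*, a protein of the nuclear envelope, was covered at 26.8% and 38.2% in adult samples, above the 2.71% to 20.4% of the other 6. *Vasp*, which encodes an actin regulator of focal adhesions, was covered at 33.6% and 38.7% in adult and 16.6% and 3.36% in TAC samples. *Bcar1*, the gene of the adaptor p130Cas, was covered at 27.5% and 45.6% in adult and 20.9% and 7.595% in TAC samples, and the adult samples of both genes lay above the TAC samples.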

How the data were processed

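5-hmC was mapped by hMeDIP-seq in 8 samples of isolated mouse CMCs, 2 at each of E14.5, neonatal, adult and TAC, grouped by their labels. Reads were aligned to mm10 by the authors with BWA 0.7.4-r385, duplicates were marked with Picard, and HOMER called broad peaks in each replicate against input DNA. The deposited lists hold peak positions, and the score they give is 1 on every line and carries no signal. Per the file headers, the precipitated reads were normalized to the input in both TAC lists and in replicate 2 of neonatal and adult, and the input to the precipitated reads in the other 4. Reads per list are not given, so the depth and the precision it gives are unknown. Input and sh-control libraries were not analysed here.

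Coverage of gene spans from curated RefSeq transcripts was computed with Python 3.11.15, numpy 2.4.6, pandas 2.3.3 and pysam 0.24.0, figures were drawn with matplotlib 3.10.9, and limma 3.58.1 in R 4.3.3 fitted log2(percent + 1) over the 8 samples with a variance trend, leaving 4 residual degrees of freedom. The fit was tested on simulated data. A list's starts were read as counted from 0. Called genes were to be given in every sample or, with fewer than 12 called, the 12 members with the largest gap between points whose replicates did not overlap, and other members by range, or by name where highest, lowest or without peaks. Of the other genes of these structures, at most 6 were named, by the same gap. The members, lists and tests were chosen with earlier results of these data known. Alternatives changed the pseudocount, scale, scaling, peak number, span, filters, variance trend, replicate block, matched genes and replicates. Pkp2, Dsg2, Itgb1, Lims1, Cav1 and the values by promoter, exon, region and place along the gene were chosen for the text after their values were seen.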

Additional observations from a re-analysis of the deposited data

How the results depend on the processing

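No member was called by limma under any alternative, the replicate block and each left-out replicate included. Of the values recomputed under alternatives, 239 counts and mean levels stayed close to the value given (a count within 1.5 times, a level within 1 SD) and 45 moved further. The 239 include calls of 0 members that stayed at 0. They also include counts for a step with a replicate of an uninvolved point left out, which could not change. Leaving out 1 of 2 replicates could not move a mean level by 1 SD. The 239 is therefore no measure of how firm the results are. The differences of the 12 members given in every sample were recomputed in 252 values, some on a square root or peak centre scale. They kept their direction in 250 and were within 1.5 times of the value given in 205. These members were picked for points without overlap, so leaving out a replicate could not turn the direction. The filters, variance trend, replicate block and left-out replicates of other points could not change the differences. The counts are therefore no test of direction. Dsp between adult and E14.5 ranged from 0.16 in peak centres to 1.68. Itga7 between adult and TAC ranged from 0.36 in peak centres to 1.68 without TAC replicate 1. In peak centres per 10 kb, the difference of Lamb2 between adult and E14.5 was 0 and that of Pxn between neonatal and TAC turned to -0.12. With samples scaled to the same mean coverage, separated members were 10 higher and 2 lower from E14.5 to neonatal (12.4% and 13.7% of all genes). They were 2 and 5 from adult to TAC (10.8% and 9.68%), and 7 and 3 from E14.5 to adult (17.2% and 23%). Exon coverage was lower in 7 from adult to TAC (12.6%), and the balance along the gene lay nearer the start in 7 from E14.5 to neonatal (13.7%). With lists thinned to equal peak numbers, 13 were higher from E14.5 to neonatal (15.9% of all genes). From neonatal to adult 11 were higher and 1 lower (22.3% and 7.37%), and from E14.5 to adult 0 were lower (7.16%). With a gap of 1 point, 1 was higher from adult to TAC (4.51% of all genes). Coverage above length-matched genes was 9.74 points in adult with 20 matched genes, 2.32, 5.31, 5.09 and 2.41 by the median over members, 5.86 in neonatal and 7.59 in adult with equal peak numbers, and 7.72 in adult when scaled. The causes were not tested.

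Leaving out each replicate in turn was added after the data had been seen for the counts of separated members. It gave 0 to 3 lower from E14.5 to neonatal (4.26% to 13.4% of all genes). From neonatal to adult 6 to 13 were higher (14.2% to 30.5%) and 8 to 14 lower (14.6% to 28.9%). From adult to TAC 0 to 1 were higher (3% to 12.2%). From E14.5 to adult 16 to 25 were higher (26.4% to 40.8%) and 1 to 2 lower (12% to 21.3%). In exons it gave 12 to 22 higher (19.9% to 33.5% of all genes) and 5 to 9 lower (12.3% to 20.2%) from neonatal to adult. From adult to TAC it gave 1 to 8 higher (4.88% to 16.1%) and 13 to 26 lower (20.1% to 37.5%). Along the gene it gave 3 to 7 towards the end from E14.5 to neonatal (18.8% to 21.3% of all genes). From neonatal to adult it gave 1 to 5 towards the start (23.5% to 25.4%). The counts in exons and along the gene, the first-listed peaks, GENCODE spans and the fit without TAC were also added after seeing the data.

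Deviations of samples with the same replicate number correlated at 0.00527 to 0.233 between points, highest between E14.5 and neonatal. Such a correlation cannot show whether samples with the same number were handled together. With the replicate block, 0 members were called over the 4 points and in each step. With 2 samples a point, no depth and no sham library, a difference that passed no test is not shown to be absent.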

Other observations

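Base pairs covered in both replicates formed 201 regions in the 35 genes at E14.5, 326 in neonatal CMCs, 276 in adult CMCs and 120 after TAC. The paper went on only with peaks seen in both replicates, whereas coverage here was taken per replicate. Similar percents in 2 replicates need not mean the same bases. Both TAC samples shared 4.55% of the span of *Jup* and 0.476% of *Ctnna1*. Both adult samples shared 1.21% of *Sgcb* but 66.7% of *Lamb2*. Of the adult regions, 112 (40.6%) met no peak in either E14.5 sample, against 40.5% of adult regions in all genes tested. Of the neonatal regions, 111 (34.1%) met none in adult samples, against 29.8%. These shares count regions, not genes, and long members hold more of them.

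CpG dinucleotides under peaks in the members were at 1.38 to 1.57 per 100 bp in 7 samples and 0.975 in TAC replicate 2, and in the rest of the spans at 0.746 to 0.804. Repeats made up 19.6% to 26.5% of the bases under peaks in the 8 samples and 27.3% to 27.8% of the rest. Peak centres lay in introns in 91.4% to 96.7% of cases.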
